A study of Mus musculus with 8 samples.

Results

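The genes described here encode voltage-gated potassium, sodium and calcium channels and the channel subunits whose symbols share their stems. They were chosen by name: every protein-coding gene of the RefSeq mouse annotation whose symbol begins with Kcn, with Scn followed by a digit, with Cacna or with Cacnb. The rule took 126 of 21887 protein-coding genes. It used no measured value. It also took members that are not themselves gated by voltage. Among them are the inward rectifiers (Kcnj), the two-pore-domain leak channels (Kcnk), the calcium-activated Kcnn channels and auxiliary subunits.

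The study mapped where PRDM16 sits on chromatin by immunoprecipitating it from lysates of whole E15.5 mouse cortex and sequencing the recovered DNA (ChIP-seq). PRDM16 is a zinc-finger transcription regulator made by the radial glia, the neural progenitors of the developing cortex. The wild-type (WT) embryos were Prdm16 flox/flox without Cre. The conditional knockout (cKO) embryos were Emx1Ires-Cre; Prdm16flox/flox, so both genotypes carried floxed Prdm16 alleles and differed in Cre. Emx1 drives Cre in the dorsal telencephalic lineage, and cortical interneurons, microglia and vessel cells in such a lysate lie outside that lineage and keep the gene. Each genotype had 2 ChIP libraries, and the age was the same in both. The lists of peaks hold no expression values, so neither the tissue nor the loss of PRDM16 could be checked against marker genes.

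Voltage-gated channels open when the membrane potential changes, and so set how a neuron fires and releases transmitter. Pore-forming subunits carry the ion. Auxiliary subunits such as the KChIP proteins, the calcium channel alpha2delta and beta subunits and the sodium channel beta subunits steer the pore to the membrane and tune its gating. In the cortex most of these genes are known for their expression in differentiating and mature neurons.

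The 4 deposited lists differed in length. WT replicates 1 and 2 held 13852 and 26652 peaks on the assembled chromosomes, and cKO replicates 1 and 2 held 4553 and 3088. No read total comes with a peak list. A stand-in for depth is the lowest background pileup that the peaks allow to be solved. It came to 0.777 for WT replicate 1, 1.78 for WT replicate 2, 2.95 for cKO replicate 1 and 2.52 for cKO replicate 2 (reads per base). The shorter lists thus came from the libraries with the higher background, and the part this has in the results was not tested. The WT and cKO lists also carry different library identifiers, whose meaning no label gives, and genotype and that difference cannot be told apart. A peak was assigned to the gene that holds its summit, or else to the nearest protein-coding gene within 100 kb. All fold enrichments below are the authors' values, each a ratio of signal at the summit to local background. They describe single lists and are not a measure of change between genotypes.

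Which channel genes carried PRDM16 peaks in the WT cortex, and how many of those peaks were met again in the cKO lists, was the first question. WT replicate 1 had 110 peaks at channel genes and WT replicate 2 had 241. In the cKO lists there were 45 and 27. The WT libraries thus lay above both cKO libraries, with no overlap, at 175.5 ± 92.6 against 36 ± 12.7 peaks (SD, n = 2 each), a ratio of 4.88. An exact two-sided permutation test over the 4 libraries gave p = 0.333, the smallest p that 6 assignments allow. The whole lists differed by a ratio of 5.30. As a share of its list, channel genes held 0.794% of the peaks of WT replicate 1 (exact 95% interval 0.653% to 0.956%), 0.904% of WT replicate 2 (0.794% to 1.03%), 0.988% of cKO replicate 1 (0.722% to 1.32%) and 0.874% of cKO replicate 2 (0.577% to 1.27%). The 4 intervals overlapped. When only the 3088 strongest peaks of each list were kept, the counts were 21 and 24 in the WT libraries and 32 and 27 in the cKO libraries, and the ratio turned to 0.763. Without WT replicate 2 the ratio was 3.06.

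**Figure D1:**
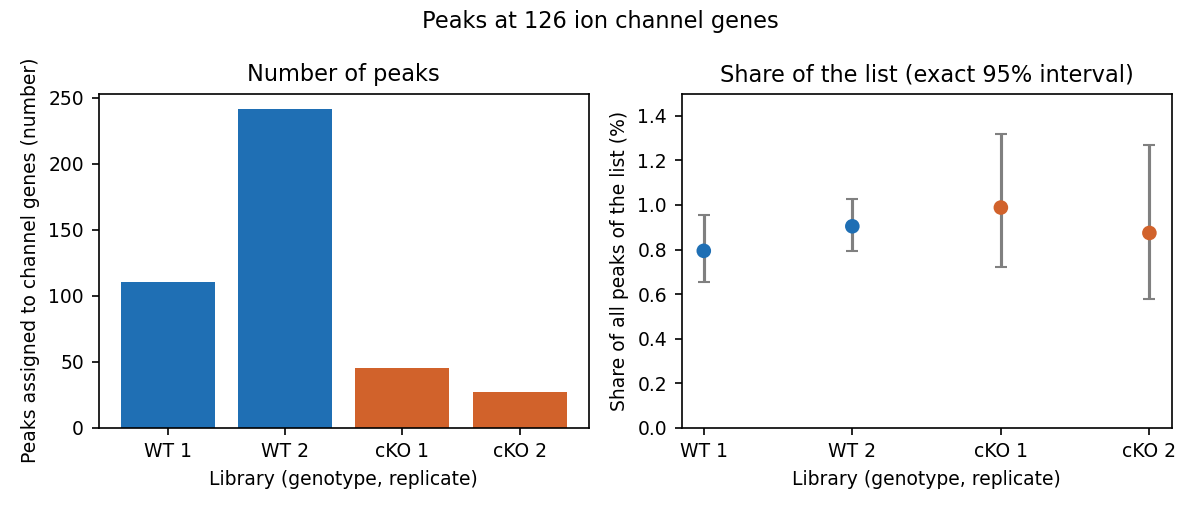
Left, number of peaks assigned to the 126 channel genes in each ChIP library (bars; x axis, genotype and replicate). Right, the same peaks as a percent of all peaks of the list, with exact 95% intervals (counting error only); the counts run from 27 to 241 while the shares stay between 0.794% and 0.988% with overlapping intervals.

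A peak was treated as replicated when it overlapped a peak in the other list of its genotype by at least 1 bp, and the union of such peaks is called a WT region or a cKO region. WT regions were found at 44 of the 126 channel genes (34.9%, exact 95% interval 26.6% to 43.9%), beside 18.3% of all protein-coding genes. At 41 of them (32.5%, 24.5% to 41.5%) at least 1 region overlapped no peak in either cKO list, beside 16.6% of all genes. The higher share of channel genes has to be read with their size. Their median length was 47.4 kb against 17.2 kb for all genes, and the stretch of genome nearest to each had a median of 108 kb against 45.8 kb. Per Mb of that stretch, channel genes held 3.37 WT regions and all genes 4.19.

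Length classes, drawn after the data were seen, were compared in turn. Among genes longer than 150 kb a WT region was present at 23 of 34 channel genes (67.6%) and at 69.1% of all genes. Between 50 and 150 kb the shares were 35.7% (10 of 28) and 33.4%, and between 20 and 50 kb they were 12.5% (3 of 24) and 15.4%. In the shortest class, up to 20 kb, 8 of 40 channel genes (20%) had a WT region, beside 8.80% of all genes. The classes go by gene length alone. They do not match the stretch of genome nearest to each gene, from which regions within 100 kb were also assigned. Across the 126 genes the number of WT regions was larger where the nearest stretch of genome was longer (Spearman 0.511, Pearson 0.488, given as a description across genes that are not independent replicates).

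The 44 genes held 81 WT regions, of which 76 (93.8%, exact 95% interval 86.2% to 98.0%) overlapped no peak in either cKO list. Over all 10090 WT regions of the genome the share was 91.5%, inside that interval. The fold enrichment of the channel gene regions had a median of 7.31 (mean of both replicates) against 7.46 for all WT regions, and ran from 3.66 to 34.6. Their median width was 523 bp against 541 bp. Every one of the 76 regions had both WT folds above 3.37, beside 98.8% of all such regions. That limit is the higher of the 5th percentiles of the folds listed in the 2 cKO libraries. The 5th percentiles of the WT lists were themselves above it, at 4.22 and 3.58, so this outcome was largely set beforehand. With the lower WT fold divided by 2, 29 of the 76 (38.2%) still lay above 3.37, beside 43.9% of all. Folds are scaled to each library's own background, so neither count says whether a cKO list could have shown these regions. Of the 81 regions, 54 had their summit inside a gene and more than 1 kb from its ends (66.7%), 5 within 1 kb of a gene end (6.17%) and 22 farther out (27.2%). Over the 8082 WT regions within 100 kb of any protein-coding gene, the shares were 56.7%, 8.66% and 34.6%. Exons and introns were not told apart here.

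Within these 81 regions, which were chosen for overlapping peaks of both WT lists, summits in the 2 lists lay a median of 47 bp apart, and 62 of the 81 pairs were within 100 bp. The fold was higher in replicate 2 at 45 of the 81. In 52 regions the 2 folds were within 1.5 times of each other, and in 9 they were more than 2 times apart. Counted by regions, 74.3% of those found in WT replicate 1 at channel genes were also in WT replicate 2, while 33.9% of those in WT replicate 2 were in WT replicate 1, the shorter list. Regions found only in WT replicate 2 numbered 146, with a median fold of 5.0, and those found only in WT replicate 1 numbered 26, with a median of 5.23. Both medians are below that of the replicated regions. Over the whole genome the lists of 13852 and 26652 peaks gave 10090 WT regions, and shares by region were not counted there. The shares and single-list numbers at channel genes are therefore not read as a trait of these genes.

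**Figure D2:**
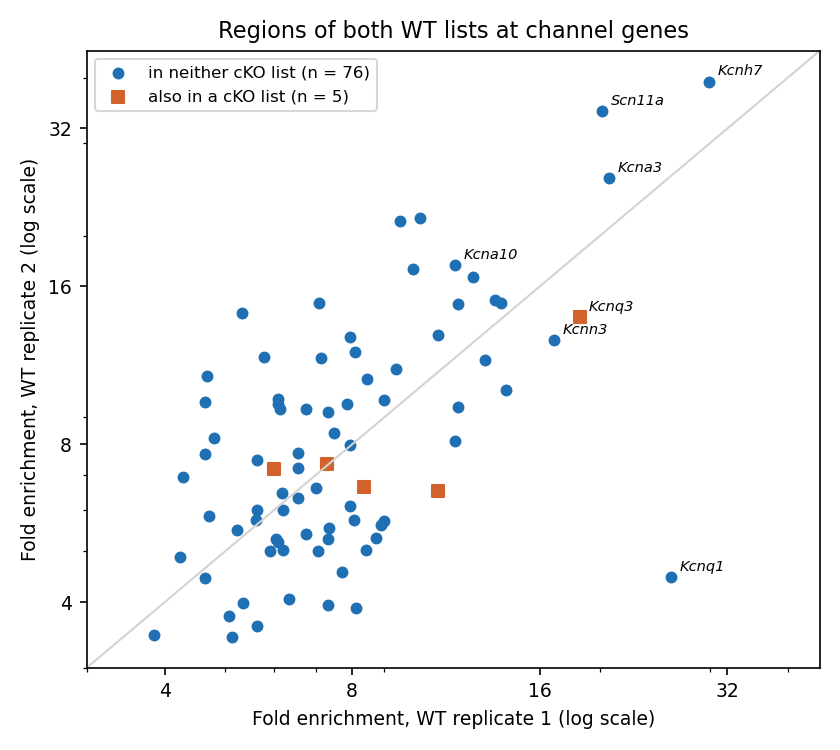
Fold enrichment in WT replicate 1 (x axis, log scale) against WT replicate 2 (y axis, log scale) for the 81 WT regions at channel genes, 1 point a region; the line marks equal folds. Kcnh7, Scn11a and Kcna3 are above 20-fold in both replicates, Kcnq1 in replicate 1 only, and the 5 regions that a cKO list also holds (squares) lie between 6.0 and 18.5 in replicate 1.

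Among voltage-gated potassium channel pore subunits, which repolarize the membrane after a spike, 16 of 40 genes had a WT region and together held 34 of them. The strongest WT region of any channel gene was in Kcnh7, which encodes a subunit of the ether-a-go-go-related (ERG) family of slow potassium channels. It lay inside the gene at chr2:62807375-62807977 (mm10), with folds of 29.9 and 39.3 in WT replicates 1 and 2 (34.6 ± 6.68, SD, n = 2), and ranked 71 among the 10090 WT regions. A neighbouring region at chr2:62808158-62809407 had folds of 9.56 and 21.3, and the other two in the gene had 8.44 and 10.6, and 13.1 and 11.6. All 4 were in both WT lists and in neither cKO list, and Kcnh7 had no cKO peak at all.

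The Kcna genes encode fast-opening, low-threshold channels of axons and, for Kcna3, of lymphocytes and microglia as well. Kcna3 had its 3 WT regions outside the gene, 80237, 37499 and 33380 bp from it. The strongest, at chr3:107002466-107003244, had folds of 20.7 and 25.7 (23.2 ± 3.56), and the most distant, at chr3:106955059-106956170, had 10.3 and 21.6. Kcna10, in the same cluster, had 1 region at chr3:107150598-107151350 with folds of 11.7 and 17.6, at 32056 bp from Kcna10 and 36082 bp from Kcna2, its next neighbour. Kcna2, an axonal channel of neurons, had 1 weaker region with folds of 6.07 and 5.22. Across the Kcna3, Kcna2 and Kcna10 cluster the 4 lists held 6, 8, 0 and 0 peaks in the order WT 1, WT 2, cKO 1, cKO 2, and thus 5 WT regions and no cKO peak. The second Kcna cluster, of Kcna5, Kcna1 and Kcna6 on chromosome 6, differed: the lists held 1, 3, 2 and 2 peaks, and it had 1 WT region and 2 cKO regions.

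The Kcnq genes encode the slowly opening channels of the M-current, which restrains repetitive firing, and Kcnq1 is best known from heart and inner ear. Kcnq1 had 5 WT regions, the most in the subfamily. The strongest by mean, at chr7:143368272-143368591, was far from even between replicates, with folds of 26.0 and 4.46 (15.2 ± 15.2), so its rank rests on WT replicate 1. The other four had folds between 5.33 and 14.2 and lay in both WT lists. The gene overlaps the imprinted antisense RNA Kcnq1ot1, and 0 of the 5 summits lay within the Kcnq1ot1 transcript. Kcnq3 had the only channel gene region with folds over 10 in both WT lists that both cKO lists also held, at chr15:66239096-66240218, with folds of 18.5 and 14.0 in WT and 4.27 and 5.30 in cKO. Its other two WT regions had 7.12 and 11.7, and 3.85 and 3.47. Kcnq5 had 2, with 11.8 and 14.8 at chr1:21411274-21411928 and 9.01 and 9.71 elsewhere in the gene.

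Kcnd3 encodes an A-type channel of dendrites that opens and inactivates below threshold. It had 3 WT regions, the strongest inside the gene at chr3:105505205-105506133 with folds of 13.9 and 14.9 (14.4 ± 0.707). WT replicate 2 alone held 9 further regions there, one of them at 9.87, the highest fold of any region found only in that list. Kcng1, a subunit that forms no channel alone and modifies other potassium channel pores, had a region 62452 bp away with folds of 14.1 and 10.1, and a second with 6.0 and 7.19 that cKO replicate 1 listed at 3.60.

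Auxiliary potassium channel subunits had WT regions at 5 of 13 genes. Kcnip1 and Kcnip4, calcium-binding KChIP partners of the Kcnd channels, had 3 each, all inside the genes. The folds of the strongest were 7.32 and 5.28 in Kcnip1, and 6.75 and 9.32 in Kcnip4. None of these 6 regions overlapped a cKO peak. Kcnip3, a further KChIP, was, of the members with a promoter window, the only one where peaks of both WT lists overlapped the bases before an annotated start, described below.

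Among calcium- or sodium-activated potassium channels 3 of 12 genes had a WT region. Kcnn3, a small-conductance calcium-activated channel of the afterhyperpolarization, had 6 inside the gene, the most of any channel gene. The strongest of them, at chr3:89646857-89647804 and chr3:89613490-89614305, had folds of 16.9 and 12.6 (14.8 ± 3.01) and of 12.5 and 16.7 (14.6 ± 2.94). The weakest had 5.14 and 3.43. No cKO peak lay inside Kcnn3, and 1 in cKO replicate 2 at 4.15 lay 16545 bp beyond its end, where WT replicate 2 had a peak of 5.57.

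**Figure D3:**
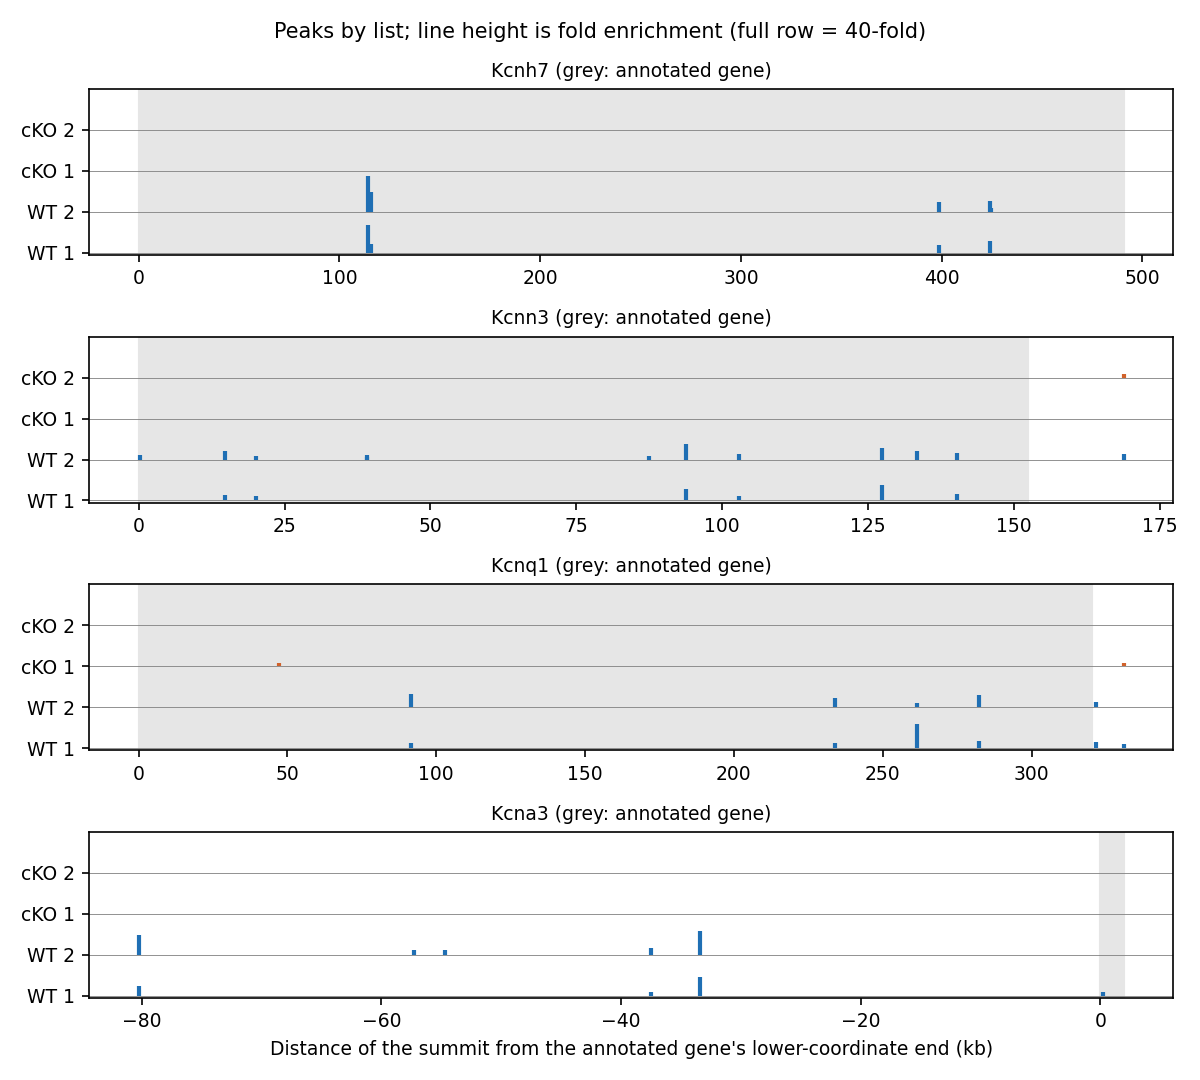
Peaks of each list along Kcnh7, Kcnn3, Kcnq1 and Kcna3 (x axis, distance in kb of the summit of the region from the end of the gene with the lower coordinate; grey, the annotated gene; line height, fold enrichment with a full row equal to 40). Lists that share a region are drawn at the same summit, so their lines coincide by construction. The genes were chosen for their WT regions. In WT replicates 1 and 2, Kcnh7 had 4 and 5 peaks, Kcnn3 6 and 12, Kcnq1 6 and 5, and Kcna3 4 and 5. The cKO rows hold 1 peak near Kcnn3, 2 near Kcnq1 and none near Kcnh7 or Kcna3.

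Inward rectifiers, which hold the resting potential, had WT regions at 3 of 15 genes, 1 each. These were Kcnj3 (folds 9.01 and 5.71), Kcnj6 (5.07 and 3.76) and Kcnj9 (6.33 and 4.05), which encode the neuronal G-protein-gated subunits. Of the 15 genes, 8 had no peak in any list. Two-pore-domain leak channels had WT regions at 5 of 14 genes. Kcnk2 and Kcnk10, which encode mechanically gated leak channels of the TREK group, had 2 each. The stronger had folds of 11.7 and 8.10 at Kcnk2, 20079 bp outside it, and of 7.08 and 14.9 inside Kcnk10.

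Sodium channel alpha subunits, which carry the upstroke of the action potential, had WT regions at 2 of 10 genes. Scn11a, known from pain-sensing peripheral neurons, had the second strongest region of all channel genes, at chr9:119803005-119804030 with folds of 20.2 and 34.5 (27.3 ± 10.1), and another 14530 bp outside the gene with 7.84 and 9.53. Scn8a, the main channel of the axon initial segment in mature neurons, had 1 inside the gene at chr15:100909774-100910369 with folds of 6.05 and 5.28. Elsewhere in Scn8a, cKO replicate 1 alone had a peak of 7.34, with its summit 25 bp before an annotated start. WT replicate 2 alone had peaks of 3.95 and 6.02. The large cluster of Scn3a, Scn2a, Scn1a, Scn9a and Scn7a spans 1328 kb of chromosome 2 and holds the main sodium channel genes of the embryonic and postnatal brain. It had no WT region and no cKO peak. WT replicate 1 had no peak there, and WT replicate 2 had 2 assigned to Scn3a (folds 5.01 and 4.0) and 1 to Scn2a (4.81), while Scn1a had none in any list. The 4 sodium channel beta genes had no peak in any list either.

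Calcium channel alpha1 pores, which turn depolarization into calcium entry, had WT regions at 6 of 10 genes. The R-type gene Cacna1e had 3, the strongest at chr1:154500393-154500994 with folds of 13.5 and 15.0 (14.3 ± 1.05). The L-type gene Cacna1c had 2 inside it, with 10.03 and 17.3 at chr6:118791862-118792617 and 5.91 and 5.0 at the weaker. Cacna1d, the other L-type gene of neurons, had 2 weak ones, with 5.63 and 3.60 and with 4.24 and 4.87. Of the auxiliary calcium channel genes, 3 of 4 alpha2delta genes and 1 of 4 beta genes had a WT region. Cacna2d3 had 3, the strongest with 9.39 and 11.1, and Cacnb4 had 1 with 4.67 and 10.8.

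The subfamilies therefore differed in how many genes had a WT region, from 0 of 4 for sodium channel beta to 3 of 4 for alpha2delta. Per Mb of nearest genome the order changed. Two-pore-domain (4.53 regions per Mb) and voltage-gated potassium pore genes (4.37) were the only subfamilies above the 4.19 of all genes. Calcium alpha1 genes had 3.65, potassium auxiliary genes 3.15 and alpha2delta genes 3.11. Calcium- or sodium-activated potassium genes had 2.67, inward rectifier and sodium alpha genes 1.81 each, calcium beta genes 1.34 and sodium beta genes 0. The 4 sodium beta genes had only 0.114 Mb of nearest genome, against 1.93 Mb for the 4 alpha2delta genes. These densities rest on 0 to 34 regions a subfamily, and no test was made between them. Across all lists, 42 of the 126 genes (33.3%) had no peak, beside 56.1% of all protein-coding genes, whose median length is lower.

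**Figure D4:**
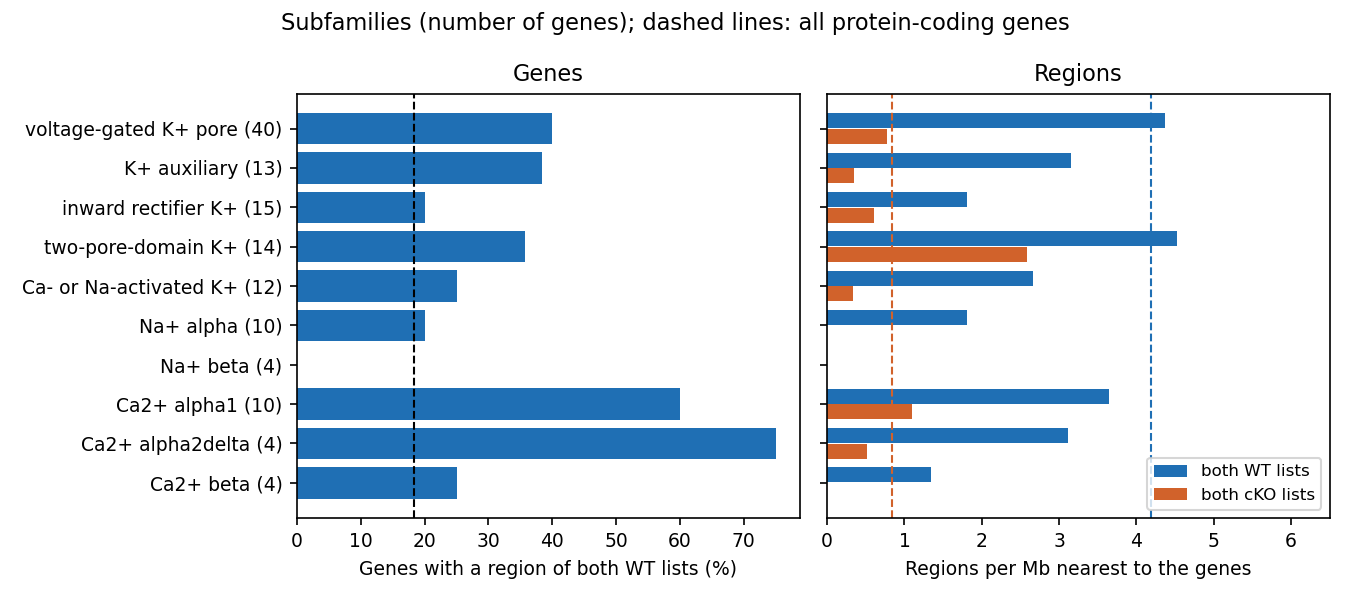
Left, percent of the genes in each subfamily with a WT region (x axis; number of genes in brackets). Right, WT and cKO regions per Mb of the genome nearest to those genes; dashed lines give the values of all protein-coding genes (left 18.3%, right 4.19 and 0.836). The alpha2delta and alpha1 calcium genes lead on the left, whereas two-pore-domain genes have the most regions per Mb of both genotypes on the right.

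Regions found in both cKO lists were compared next. Such a region was present at 15 of the 126 channel genes (11.9%, exact 95% interval 6.82% to 18.9%), beside 6.83% of all genes. Per Mb, channel genes held 0.708 cKO regions and all genes 0.836. The 15 genes held 17 regions, of which 9 (52.9%, 27.8% to 77.0%) overlapped no WT peak, beside 46.5% of all cKO regions. Those 9 were at 8 genes (6.35%), beside 3.43% of all genes. The cKO regions were narrower than the WT regions and had lower listed folds, with a median width of 268 bp and a median fold of 5.05, and over all genes the values were 293 bp and 5.47. Within 1 kb of a gene end lay 4 of the 17 (23.5%), and 10 (58.8%) lay farther inside a gene. Over the 1613 cKO regions within 100 kb of any protein-coding gene, the shares were 39.4% and 33.8%.

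The 3 strongest cKO regions were all at two-pore-domain genes. Kcnk18, a leak channel known from sensory neurons, had folds of 15.3 and 20.2 in the cKO lists (17.7 ± 3.45, SD, n = 2) at chr19:59239502-59239877, 2305 bp outside the gene, and 7.28 and 7.34 in the WT lists. Kcnk9, an acid-sensitive leak channel of neurons, had 13.1 and 9.45 (11.3 ± 2.57) at chr15:72517062-72517343, with 6.86 in WT replicate 2 only, and a second region at chr15:72549496-72549709 with 5.14 and 4.96 and no WT peak. Kcnk12, a halothane-inhibited family member, had 7.03 and 8.67 in cKO and 11.0 and 6.52 in WT at chr17:87745304-87745662. At Kcnk18 the cKO folds were above both WT folds, and at Kcnk12 the ranges overlapped. The folds were scaled to each library's own background, so no test between genotypes was made on them.

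The cKO regions that no WT list held lay at genes of several kinds. Cacna2d2, a cerebellar alpha2delta subunit, had the strongest with folds of 8.05 and 7.59 at chr9:107456726-107457031. Cacna1i, a low-threshold T-type calcium channel, followed with 7.85 and 5.40, and Kcnc1, a channel of fast-spiking neurons, with 6.58 and 5.0. Kcnn1 had 6.41 and 4.76. Kcna5 had 2 such regions, with 5.32 and 4.48 and with 5.38 and 3.55, beside a WT region of 11.8 and 9.44. Kcnab2, a cytoplasmic potassium channel subunit, had 4.45 and 5.12. None of these cKO folds exceeded 8.05. At Cacna1e a cKO region with 5.32 and 4.38 was also in WT replicate 2, at 7.52.

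**Figure D5:**
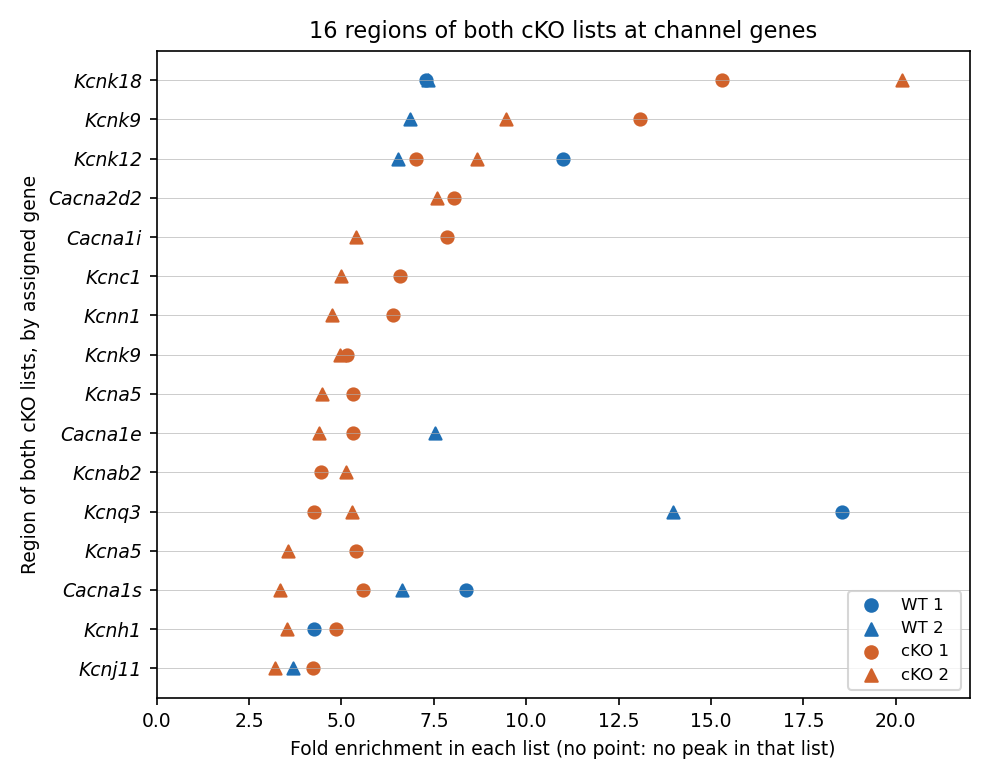
Fold enrichment (x axis) in each list for 16 of the 17 regions found in both cKO lists, 1 line a region, labelled with the assigned gene; circles are replicate 1, triangles replicate 2, and a missing point means no peak in that list. The 8 regions with cKO points alone have folds up to 8.05, and the topmost region, at Kcnk18, has both cKO points above both WT points.

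Of 303 regions found in any list at channel genes, 267 had a WT peak, 55 had a cKO peak and 19 had both. No such count was made over the whole genome, so these numbers are not read as a trait of the channel genes. The WT regions met again in a cKO list numbered 5, at Kcnq3, Kcnk12, Kcnk18, Kcng1 and Cacna1s, out of 81, and over the whole genome 858 of 10090. Of the 5, 4 were in all 4 lists. The fifth, at Kcng1, was in cKO replicate 1 but not in cKO replicate 2. Kcng1 is known as a modifier subunit and Cacna1s as the L-type channel of skeletal muscle. Cacna1s had folds of 8.37 and 6.63 in WT and of 5.57 and 3.34 in cKO.

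Start sites were examined with the RefSeq table of promoter windows (GRCm38.p6, the same build as mm10), of which the 250 bases before each annotated start were used. The table had such windows for 93 of the 126 channel genes. A peak overlapped the window of 5 of them in WT replicate 1 (5.38%, all genes 3.85%), 7 in WT replicate 2 (7.53%, all 7.42%) and 2 in each cKO list (2.15%, all 6.04% and 4.46%). Peaks of both WT lists did so only at Kcnip3 (1.08%, all genes 2.03%), which encodes the KChIP that also acts as the transcriptional repressor DREAM. Peaks of both cKO lists did so only at Kcnh1 (1.08%, all genes 2.30%), an ether-a-go-go potassium channel. At Kcnip3 the folds were 4.64 and 9.62 in WT with summits 174 and 279 bases before the start, and no cKO peak overlapped the window. Inside Kcnip3, away from the window, cKO replicate 1 alone had peaks of 5.02 and 4.94. At Kcnh1 the folds were 4.85 and 3.53 in cKO with summits 37 and 19 bases before the start, and 4.26 in WT replicate 1. The sequences of both windows are shown because these are the windows with a replicated peak. That of Cacnb2, an auxiliary calcium channel gene, is shown for comparison as the one with the highest fold in a single list, 9.35 in WT replicate 2 with the summit 202 bases before an internal start of the gene. Kcnh1, Cacnb2 and Cacna1s were chosen after their values were seen. Capitals mark the E-box CANNTG, the core site of basic helix-loop-helix factors, read 5′ to 3′ towards the start.
Kcnip3, chr2:127522095-127522344, minus strand: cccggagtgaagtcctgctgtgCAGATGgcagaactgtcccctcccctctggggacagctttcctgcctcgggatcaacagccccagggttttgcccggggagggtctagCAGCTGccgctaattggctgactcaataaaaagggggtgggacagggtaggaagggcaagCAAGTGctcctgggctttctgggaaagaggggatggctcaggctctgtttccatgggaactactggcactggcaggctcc
Kcnh1, chr1:192190527-192190776, plus strand: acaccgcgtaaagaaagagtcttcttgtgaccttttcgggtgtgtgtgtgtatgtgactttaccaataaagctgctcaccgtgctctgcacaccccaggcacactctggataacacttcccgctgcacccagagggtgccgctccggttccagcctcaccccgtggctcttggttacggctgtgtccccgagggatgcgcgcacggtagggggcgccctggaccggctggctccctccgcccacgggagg
Cacnb2, chr2:14823842-14824091, plus strand: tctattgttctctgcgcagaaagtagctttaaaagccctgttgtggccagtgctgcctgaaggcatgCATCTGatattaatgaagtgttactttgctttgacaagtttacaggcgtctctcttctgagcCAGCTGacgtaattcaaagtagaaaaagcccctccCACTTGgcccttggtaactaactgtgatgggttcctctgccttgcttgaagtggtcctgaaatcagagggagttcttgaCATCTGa

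The Kcnip3 window held 3 E-boxes, the Cacnb2 window 4 and the Kcnh1 window 0. On either strand 62.8% of all 21263 windows held at least 1, and 65.6% of the 128 windows of channel genes. The CAGATG form of the E-box, which is contained in CANNTG and reads CATCTG on the other strand, was present once in the Kcnip3 window and 2 times in the Cacnb2 window, beside 12.4% of all windows and 14.8% of channel gene windows with at least 1. GGACAGC, one end of the binding site of the neuronal gene repressor REST, was present once in the Kcnip3 window and in 5.50% of all windows and 8.59% of channel gene windows, and the other end, TTCAGCACC, in 0.329% and 0.781%. The binding motif of nuclear factor I (NFI), TTGGCA, was in 11.5% of all and 11.7% of channel gene windows, and the Sox core ACAANG in 33.7% and 33.6%. GAAGATGAG, a site of the PRDM16 relative EVI1, was in 0.334% of all windows and in 0 of the 128, and GATAAG was in 6.25% and 7.03%. A match of these letters describes the window and marks no bound site.

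Genes that work with these channels but lie outside the naming rule were read from a separate list of 33, of which 31 were found in the annotation. WT regions were present at 16 of the 31 (51.6%, all genes 18.3%), and at 15 (48.4%, all genes 16.6%) at least 1 region was in neither cKO list. The median length of the 31 was 40.5 kb against 17.2 kb for all genes, and the counts were not adjusted for it. The sodium leak channel Nalcn had 1, with folds of 12.6 and 11.4, and its partners Unc79 and Unc80 had 1 each. Among potassium channel partners, Dpp6, which joins Kcnd channels with the KChIPs, had the strongest region of the list with 17.8 and 29.2. The most regions of the list were at 2 genes for proteins that place channels along the axon. Ank2 had 7, the highest with 8.19 and 20.2, and Cntnap2 had 6, with up to 15.9 and 10.2. Ank3 and Cntnap1, of the same kind, had 1 each. Regions in both cKO lists were present at 3 of the 31 (9.68%, all genes 6.83%), namely Hcn3, Cacng4 and Ank3.

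The number of channel genes with a WT-only region was 41 with both WT lists, 72 without WT replicate 1 and 53 without WT replicate 2. With 1 list left, a region no longer had to be found again in a replicate. When each list was cut to its 3088 strongest peaks, the number was 11. The number of channel genes with a cKO region was 15 with both lists, 23 without cKO replicate 1 and 34 without cKO replicate 2. The share of all protein-coding genes is given here only for both lists at full length. It was 16.6% for a WT-only region and 6.83% for a cKO region. The other numbers are therefore not read as a trait of the channel genes.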

How the data were processed

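PRDM16 ChIP-seq was analysed from 4 peak lists, 1 a library, for 2 WT and 2 cKO libraries of E15.5 cortex. The extract was crosslinked with paraformaldehyde and EGS and sonicated, per the labels' protocols. MACS2 2.1.1, Bowtie2 2.2.8, cutadapt and FastQC are named with the mm10 build in the submitters' processing notes; their settings are not given in the sources used here. The input libraries of the series were not analysed here. In the deposited lists, the enrichment of a peak is a fold (ratio) over local background, and the authors give its p-value and q-value, both as −log10. Each list was called on 1 library and not on pooled replicates.

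Lines on unplaced contigs (12, 14, 37 and 19 in the order WT 1, WT 2, cKO 1, cKO 2) were left out. Peaks were counted as listed, and overlapping peaks were joined only when regions were built. Assignment by summit, with a reach of 100 kb, used the RefSeq gene table of GRCm38.p6; coordinates count from 1. Background pileup was solved from the fold and −log10 p of each peak, accepted within 0.001 of the listed value. Nothing in the labels says that the libraries of a genotype came from separate embryos, so spreads may be technical. Intervals are exact (Clopper-Pearson) at 95% and cover counting error only. Numbers of peaks were compared with an exact permutation test; lists of genes were counted beside all protein-coding genes. Python 3.11.15, pandas 2.3.3, numpy 2.4.6, SciPy 1.17.1 and matplotlib 3.10.9 were used, and the counting steps were tested on simulated data.

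Named genes were the 12 with the strongest WT region by mean fold, in each subfamily those with the most WT regions, up to 12 with the strongest cKO region, those with a start window overlapped by peaks of both WT lists, and Scn1a, Scn2a, Scn3a, Scn8a, Cacna1c and Cacna1d whatever their values. Some named items are not reported here. The genes and lists were chosen with earlier results of these data known. Alternatives tried were lists of equal length, a q-value of 0.001, an overlap of 50%, a reach of 10 kb, summits inside the gene, merging of duplicate intervals, leaving out each library and pairing by replicate number.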

Additional observations from a re-analysis of the deposited data

How the results depend on the processing

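Of the 4 results at channel genes, the share of WT regions in neither cKO list was between 92.9% and 96.4% under every alternative run. With lists of equal length the ratio of WT to cKO peak counts reversed to 0.763, and channel genes with a WT-only region numbered 11. Leaving out 1 library at a time gave 41 to 72 genes with a WT-only region, 15 to 34 with a region of both cKO lists, and ratios of 3.06 to 6.69. In these, a genotype with 1 list left has regions without replication. Shares of all protein-coding genes under the alternatives are not given here, so these numbers of genes are not read as a trait of the channel genes. With the replicate block, the ratios of the pairs of same-numbered libraries were 2.44 and 8.93, with a geometric mean of 4.67 and an exact sign-flip p of 0.5, the smallest that 2 pairs allow; nothing in the labels says that a number marks a shared litter or day. The ratio moved by over 1.5 times without WT replicate 2, to 3.06. Other alternatives kept the direction of the ratio, left both numbers of genes within 1.5 times of the values reported, and left the share inside its interval. A place with no peak in a cKO list may hold binding under that list's threshold, and the cause of the difference in list length was not tested.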
